A study of Mus musculus with 6 samples.

Results

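Focal adhesions are the sites where integrin receptors, bound to extracellular matrix outside the cell, are coupled to actin filaments inside it. Talin and kindlin bind the integrin tail and switch the receptor on, vinculin reinforces the link to actin, and a layer of kinases and adaptors passes the signal on to the machinery that sets filament assembly and tension. In heart muscle the same proteins sit at costameres, which tie the outer sarcomeres to the cell membrane, and in fibroblasts they carry the pull of the contracting scar. The genes described here are the cytoplasmic proteins of this layer, 33 in number. They were taken as a named list by function, drawn up with earlier results of these data known, from 17524 genes in the deposited table, and all 33 were found there and passed the filter on low counts. By role they fall into talins, kindlin and vinculin (4 genes), the complex of integrin-linked kinase with PINCH and parvin proteins (5), kinases and adaptors (8), and actin crosslinkers and proteins of growing filament ends (6). The other 10 are Rhoa, Rac1, Cdc42, Rock1, Rock2, Diaph1, Pak1, Pak2, Arhgap5 and Capn2.

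RNA was sequenced from 6 mouse heart samples. The 3 controls, numbered 35, 36 and 37 in their titles, are given as wild type (WT). The other 3, numbered 34, 41 and 43, are given as TFEB overexpression, and the series names their line R26-LSL-TFEB [+/+]; Acta2-cre: a cassette for the transcription factor EB (TFEB), which switches on genes of lysosomes and autophagy, sits at the Rosa26 locus and is switched on by Cre recombinase under the promoter of the smooth muscle actin gene Acta2. Such a promoter is active in myofibroblasts and smooth muscle. The share of cells in these samples that carry the switched-on cassette is not given and was not measured. Tying off of the left anterior descending coronary artery is given as the treatment of all 6 samples. Whether the controls carry Cre or the cassette, the age of the mice and the time after ligation are not given by the labels.

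The material is labelled both as heart tissue and as primary fibroblasts. Heart muscle RNA made up a large part of it: 16 cardiomyocyte markers, Myh6, Tnnt2 and Ttn among them, were all above 0 in every library and summed to 92411 to 133813 TPM (a level scaled for transcript length and library). The 12 fibroblast markers, Pdgfra and Tcf21 among them, were also all above 0 and summed to 2723 to 4861 TPM. Library totals ran from 12942480 to 14969287 estimated counts. CPM below are counts scaled for library size and composition, listed as controls 35, 36, 37 and then TFEB 34, 41, 43. Tfeb itself had 34.4, 33.8 and 41.4 CPM in control against 45.4, 45.3 and 39.4 CPM in TFEB overexpression, a log2 fold change of 0.25 (SE 0.12) with an adjusted p of 1.00 by edgeR. The groups overlap at this gene. Whether RNA from the cassette is counted under Tfeb is not known, so the value does not check the genotype labels. Separate animals are not stated for the libraries, and the p-values then reflect the spread among these 6 only, which may be technical.

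The adhesion genes covered a wide range of levels. Per length, Rhoa was the highest, with a mean of 294 TPM over the 6 libraries (252 to 347). Cdc42 (217 TPM) and Rac1 (194 TPM) followed. The kindlin gene Fermt2 stood at 131 TPM (124 to 141), in a range that lay below the lowest value of each of these 3. A broad middle class followed in which neighbouring genes overlapped between libraries: the pseudokinase gene Ilk at 93.6 TPM, the muscle filamin gene Flnc at 92.0, Actn4 at 87.0, the calpain protease gene Capn2 at 85.4, Flna at 81.6 and vinculin (Vcl) at 78.4. The lowest 3 were the tyrosine kinase gene Src (5.87 TPM), Pak1 (3.02 TPM) and Parvg (2.02 TPM, 0.750 to 4.19), a parvin best known from white blood cells. Parvg lies 8485 bases beyond Parvb on chromosome 15, yet Parvb, the parvin of heart and skeletal muscle, stood at 58.8 TPM (48.3 to 64.7).

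**Figure D1:**
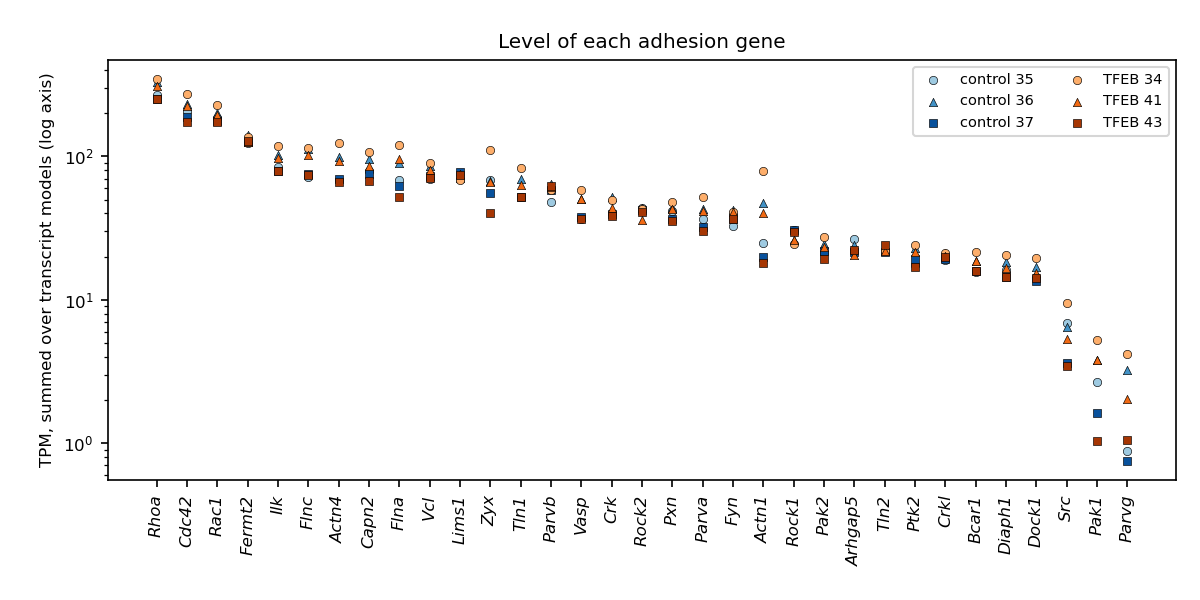
Level of each adhesion gene in each library, as TPM summed over its transcript models, on a log axis and ordered by mean level; circles, triangles and squares mark the libraries, blue for control and orange to brown for TFEB overexpression. Rhoa leads at 294 TPM on average and Parvg is lowest at 2.02 TPM, and the points of Actn1, Zyx, Pak1 and Parvg are the most spread.

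No adhesion gene passed the test between the groups. Of the 33 genes, 0 were called higher and 0 lower at an adjusted p under 0.05 (edgeR quasi-likelihood test, Benjamini-Hochberg over 13565 genes), where 0% of all genes tested were called. At an unadjusted p under 0.05 there were also 0 of 33, where 1.21% of all genes reached it, 0.376% as higher and 0.833% as lower. DESeq2 and limma-voom called 0 of 33 as well, with 0 at an unadjusted p under 0.05 by either tool; over all genes DESeq2 called 0.00737% and limma-voom 0%. The values of the groups overlapped in all 33 genes, where 4.75% of all genes had no overlap. A value above 0 was found in 27 of 33, where 51% of all genes had one, with a median log2 fold change of 0.08 against 0.0030 for all genes. The size of that median varied with single libraries: it was 0.030 without TFEB 34, 0.135 without control 36 and 0.138 without TFEB 43. The number above 0 ran from 20 to 29 of 33 over the fits with a library left out.

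The width of the intervals says how large a difference could have gone unseen. The 95% interval of the ratio of TFEB overexpression to control lay within a 1.5-fold change in either direction for 25 of 33 genes, against 55.0% of all genes tested. It lay within a 2-fold change for 30 of 33, against 78.7% of all genes, and Actn1, Pak1 and Parvg are the exceptions. Smaller differences were hardly bounded: within a 1.2-fold change lay the interval of 1 of 33 genes, Crkl, against 6.21% of all genes. These are bounds on whole-tissue RNA. In such samples fewer cells of a type and less RNA per cell cannot be told apart, and RNA of the cells in which the cassette is on is measured together with that of all other cells.

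**Figure D2:**
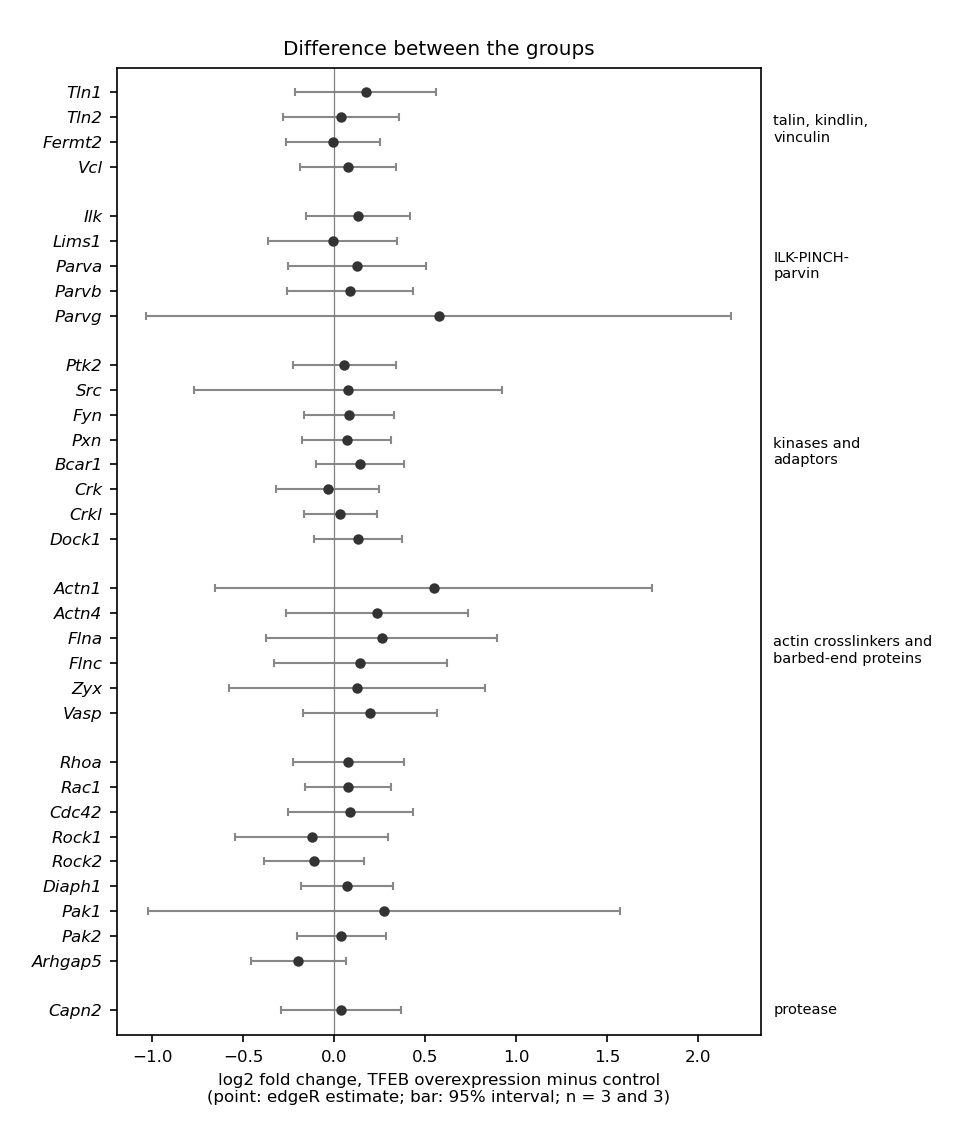
Log2 fold change of each adhesion gene, TFEB overexpression minus control, as estimated by edgeR (points) with its 95% interval (bars) from 3 libraries per group, ordered by role. Every interval crosses 0; the widest belong to Parvg, Pak1 and Actn1 and the narrowest to Crkl.

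The talins, kindlin and vinculin had a median log2 fold change of 0.05, with 3 of 4 values above 0. Talin-1 (Tln1, Entrez gene 21894, at mm10 chr4:43531513-43562583), the talin of most cell types, had 260, 330 and 283 CPM in control against 384, 315 and 285 CPM in TFEB overexpression. The groups overlapped, with TFEB 34 highest and control 35 lowest, and the log2 fold change was 0.17 (SE 0.16), or 0.044 without TFEB 34. Vinculin (Vcl, Entrez gene 22330, at chr14:20929383-21033676) had 210, 247 and 239 CPM in control against 253, 244 and 235 CPM in TFEB overexpression. Control 35 was the lowest and the other 5 libraries lay between 235 and 253 CPM, and the ratio was 1.05 (95% interval 0.877 to 1.26). Talin-2 (Tln2), the form that heart muscle favours at its costameres, had a log2 fold change of 0.03 (SE 0.13) and was highest in TFEB 43 and lowest in TFEB 34, where Tln1 was highest. Fermt2, the kindlin of muscle and connective tissue, had the smallest log2 fold change in size, −0.0073 (SE 0.11), and its CPM differed by 1.13 times between its highest and lowest library.

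Among the partners of integrin-linked kinase, which anchors a PINCH and a parvin protein at the integrin tail, Ilk (Entrez gene 16202, at chr7:105736590-105742925) had 78.4, 89.7 and 78.9 CPM in control against 101, 89.4 and 79.9 CPM in TFEB overexpression. Only TFEB 34 lay above every control, and the ratio was 1.09 (95% interval 0.898 to 1.33). Lims1, which encodes PINCH-1, stood at −0.0092 (SE 0.15), Parva at 0.12 (SE 0.16) and Parvb at 0.09 (SE 0.14), all in log2 fold change. Parvg rested on 15 to 88 counts per library and had 1.28, 4.42 and 1.17 CPM in control against 5.60, 2.93 and 1.65 CPM in TFEB overexpression. Its log2 fold change of 0.57 (SE 0.67) was 0.0035 without TFEB 34 and was 1.48 without control 36. A list of 10 leukocyte markers, Ptprc and Laptm5 among them, was also highest in TFEB 34, and was lowest in TFEB 43, at 213 to 479 summed TPM in control and 207 to 755 TPM in TFEB overexpression, all 10 above 0 in every library. The part of leukocyte RNA in the Parvg values was not tested.

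The kinases and adaptors had a median log2 fold change of 0.07, with 7 of 8 values above 0. Focal adhesion kinase (Ptk2, Entrez gene 14083, at chr15:73205102-73423820), which is activated at clustered integrins and recruits Src, had 47.2, 58.0 and 54.5 CPM in control against 59.2, 57.2 and 49.4 CPM in TFEB overexpression. The ratio was 1.04 (95% interval 0.854 to 1.26). Paxillin (Pxn, Entrez gene 19303, at chr5:115491970-115555987), the scaffold that both kinases phosphorylate, had 92.5, 93.6 and 86.0 CPM in control against 98.2, 101 and 85.4 CPM in TFEB overexpression. TFEB 34 and 41 lay above all controls and TFEB 43 below them, with a ratio of 1.05 (95% interval 0.885 to 1.24).

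Bcar1 encodes p130Cas, a Src substrate that senses stretch. It had 27.3, 31.2 and 30.1 CPM in control against 34.8, 32.8 and 30.1 CPM in TFEB overexpression, so that 2 TFEB libraries lay above all controls and the third among them. Dock1, the exchange factor that p130Cas and Crk recruit to activate Rac1, had 57.2, 63.4 and 57.6 CPM in control against 71.8, 61.2 and 61.8 CPM in TFEB overexpression. Their log2 fold changes were 0.14 (SE 0.10) and 0.13 (SE 0.10), among the 6 smallest p of the set. The adaptors Crk (−0.04, SE 0.12) and Crkl (0.03, SE 0.08) and the Src-family kinase Fyn (0.08, SE 0.10) lay nearer 0. Src itself, at 103 to 303 counts per library, spread by 2.27 times between its highest and lowest library, and its log2 fold change of 0.08 (SE 0.35) was −0.31 without TFEB 34.

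The actin crosslinkers and filament-end proteins were the role group with the widest spread. All 6 had a value above 0 (median log2 fold change 0.22), but without TFEB 34 only 4 of 6 did, with a median of 0.059. Without control 36 the median was 0.35 and without TFEB 43 it was 0.38. Alpha-actinin-1 (Actn1, Entrez gene 109711, at chr12:80167542-80260420), which bundles actin in stress fibres, had 52.3, 94.1 and 44.8 CPM in control against 152, 84.9 and 41.6 CPM in TFEB overexpression. Both the highest and the lowest library carry the TFEB label, and they differ by 3.67 times. Its log2 fold change of 0.54 (SE 0.50) was −0.011 without TFEB 34. Actn4, its widely expressed relative, had 151, 208 and 164 CPM in control against 252, 205 and 158 CPM in TFEB overexpression (0.24, SE 0.21). It was high in control 36, TFEB 34 and TFEB 41 and low in the other 3 libraries, as Actn1 was.

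Filamin A (Flna, Entrez gene 192176, at chrX:74223461-74249854), which crosslinks actin and binds integrin tails, had 335, 423 and 331 CPM in control against 548, 474 and 281 CPM in TFEB overexpression. TFEB 34 and 41 lay above all controls and TFEB 43 below them, and the log2 fold change was 0.26 (SE 0.26). Filamin C (Flnc, Entrez gene 68794, at chr6:29433153-29461889), the filamin of striated muscle, had 381, 568 and 431 CPM in control against 558, 538 and 428 CPM in TFEB overexpression. Its highest value was that of control 36, and the log2 fold change was 0.14 (SE 0.20). Vasp, which extends actin filaments, had 44.3, 57.8 and 48.6 CPM in control against 64.5, 60.1 and 47.9 CPM in TFEB overexpression, a log2 fold change of 0.20 (SE 0.15). Zyxin (Zyx), which is drawn to stretched stress fibres, had 0.12 (SE 0.29), or −0.25 without TFEB 34.

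**Figure D3:**
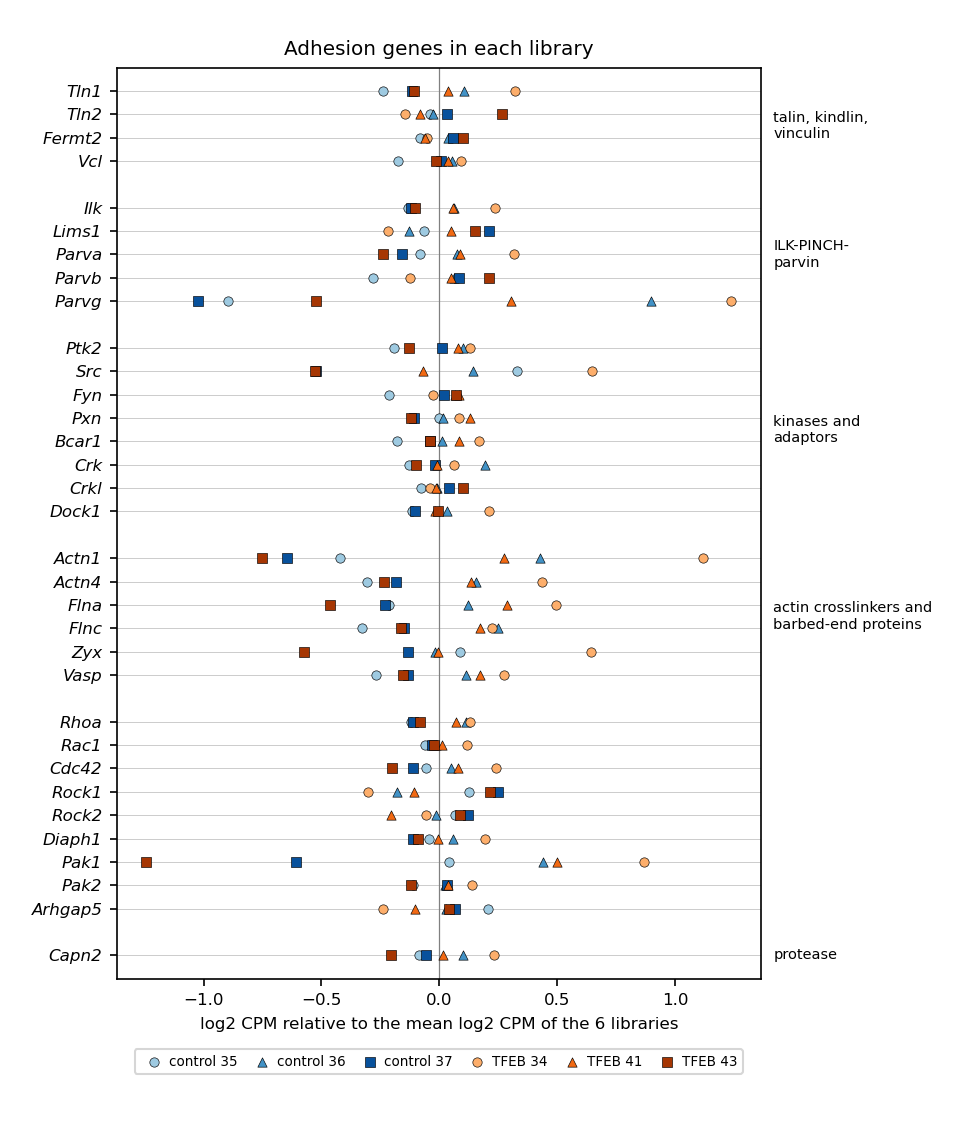
Each adhesion gene in each library, as log2 CPM relative to the mean log2 CPM of the 6 libraries, ordered by role; symbols as in the plot of levels. The libraries of both groups are interleaved in every row, and Actn1, Zyx, Src, Pak1 and Parvg spread by more than 2 times between their highest and lowest library.

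Of the 6 values under 0 in the whole set, 3 were those of Rock1, Rock2 and Arhgap5. Rhoa (Entrez gene 11848, at chr9:108306160-108337943), which drives stress fibre tension, had 309, 363 and 310 CPM in control against 367, 352 and 317 CPM in TFEB overexpression. The groups overlapped, and the ratio was 1.05 (95% interval 0.854 to 1.3). Rac1 (0.07, SE 0.10) and Cdc42 (0.09, SE 0.14), which drive lamellipodia and filopodia, gave similar log2 fold changes. The kinase genes Rock1 (−0.12, SE 0.17) and Rock2 (−0.11, SE 0.11), whose products raise myosin activity, had values under 0, and the formin gene Diaph1, which extends actin filaments, had 0.07 (SE 0.11). The kinase genes Pak1 (0.27, SE 0.54; 23 to 129 counts) and Pak2 (0.04, SE 0.10) act below Rac1 and Cdc42.

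The smallest p of the set belonged to Arhgap5. It had 115, 102 and 105 CPM in control against 84.8, 93.1 and 103 CPM in TFEB overexpression. TFEB 34 and 41 lay below all controls and TFEB 43 between control 36 and control 37. The log2 fold change was −0.20 (SE 0.11), with an unadjusted p of 0.113 and an adjusted p of 1.00 by edgeR, and it ran from −0.27 to −0.13 over the fits with a library left out. Capn2, a protease that cuts talin during adhesion turnover, had 0.04 (SE 0.14).

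Some libraries stood high or low across the set within their own group. TFEB 34 held the highest CPM of 21 of 33 adhesion genes (63.6%), against 26.8% of all genes tested. The lowest value was found in control 35 for 16 genes (48.5%), against 13.4% of all genes. TFEB 43 held it for 10 (30.3%), which is near its 25.5% of all genes. As a mean over the actin crosslinkers and filament-end proteins, log2 CPM relative to the 6 libraries was 0.53 in TFEB 34, 0.17 in control 36, 0.17 in TFEB 41, −0.24 in control 35, −0.24 in control 37 and −0.39 in TFEB 43. Control 36 and TFEB 41 were nearly tied here (0.174 and 0.172), as were controls 35 and 37 (−0.242 and −0.245). Single genes differed too: Actn4, Flnc and Vasp were lowest in control 35 and not in TFEB 43. Apart from these near ties, the 20 collagen and matrix markers gave the same order, at 1.45, 0.87, 0.57, 0.098, −1.25 and −1.74. All 20 were above 0 in every library, and they summed to 2848 to 10132 TPM in control and 2114 to 16392 TPM in TFEB overexpression.

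This order was not particular to the actin crosslinkers. The kinases and adaptors also followed it, from −0.093 in TFEB 43 to 0.15 in TFEB 34. A wider list of related adhesion genes, described below, did so from −0.21 to 0.28. The mean log2 CPM of the macrophage and of the leukocyte markers followed it as well. For macrophage markers its ends were 0.74 and −0.63, and for leukocyte markers 0.85 and −0.67. The smooth muscle, fibroblast, endothelial and cardiomyocyte markers had other orders. Macrophage markers, 12 genes all above 0 in every library, summed to 876 to 1840 TPM in control and 737 to 2718 TPM in TFEB overexpression. Smooth muscle markers, also 12 and all above 0, summed to 1748 to 2678 TPM and 1835 to 3314 TPM, with TFEB 41 above control 36. Fibroblast markers were highest in control 35, endothelial markers in control 36, and cardiomyocyte markers in TFEB 41 by mean log2 CPM. With the matrix level of each library as a covariate in edgeR, the SE of Actn1 was 0.16 in place of 0.50 and its log2 fold change 0.32, and that of Flna was 0.16 (SE 0.12). Zyx stood at −0.0063 (SE 0.16) in that fit. None of the 33 was called in it.

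**Figure D4:**
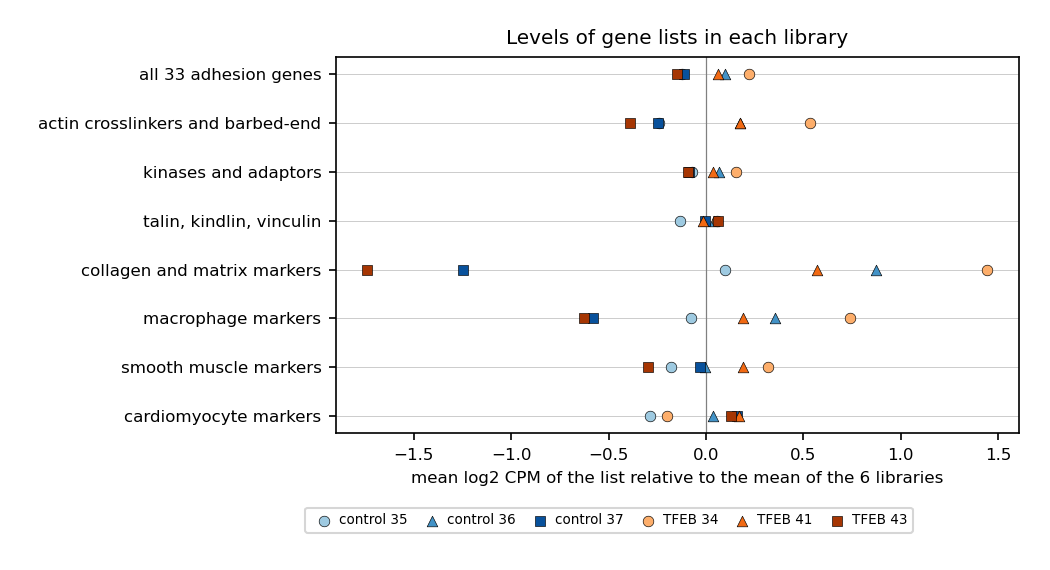
Mean log2 CPM of gene lists in each library, relative to the mean of the 6 libraries; symbols as in the plot of levels. The actin crosslinkers run from −0.39 in TFEB 43 to 0.53 in TFEB 34. Controls 35 and 37 are nearly tied in them, as are control 36 and TFEB 41. The kinases and adaptors, the collagen and matrix markers and the macrophage markers have the same order of libraries. Talins, kindlin and vinculin stay within −0.14 and 0.061.

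Ratios between related genes were compared within each library, since a ratio of TPM does not depend on the scaling of the library. In none of 9 ratios did the groups separate, and the exact permutation test (two-sided, with 0.1 as the smallest p that 3 against 3 allows) gave p from 0.5 to 1 and an adjusted p of 1.00 for each. Tln2 over Tln1 stood at −1.25, −1.63 and −1.28 in log2 ratio in controls 35, 36 and 37 and at −1.94, −1.54 and −1.11 in TFEB 34, 41 and 43, so that talin-1 RNA was the more abundant throughout. Parvb over Parva stood at 0.40, 0.59 and 0.84 in the controls and at 0.16, 0.56 and 1.05 in TFEB overexpression. Flnc and Flna were close to equal, at log2 ratios from −0.073 to 0.51.

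Actn4 exceeded Actn1 in every library, by 1.59 to 3.65 times. In most of the 9 ratios TFEB 34 and TFEB 43 stood at opposite ends: TFEB 43 held the highest value of 7 and TFEB 34 the lowest of 6. Those 6 were Tln2/Tln1, Parvb/Parva, Actn4/Actn1, Flnc/Flna, Pak2/Pak1 and Fyn/Src. Rock2/Rock1 had the reverse, with TFEB 34 highest and TFEB 43 lowest. Parvg/Parva was lowest in control 37 and Crkl/Crk in control 36. For Tln2/Tln1, Parvb/Parva and Flnc/Flna the numerator is the gene that striated muscle favours. The 16 cardiomyocyte markers summed to 92411 TPM in TFEB 34, the lowest of the 6 libraries, and to 133813 TPM in TFEB 43, the highest. The other libraries did not all match: control 35 had the second lowest sum, 95014 TPM, but the second highest Tln2/Tln1, and TFEB 41, at 124738 TPM, had a log2 Flnc/Flna of only 0.085. By mean log2 CPM the cardiomyocyte markers gave other ends than by summed TPM. They were lowest in control 35 (−0.29, against −0.20 in TFEB 34) and highest in TFEB 41 (0.17, against 0.13 in TFEB 43). Their part in the ratios was not tested.

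**Figure D5:**
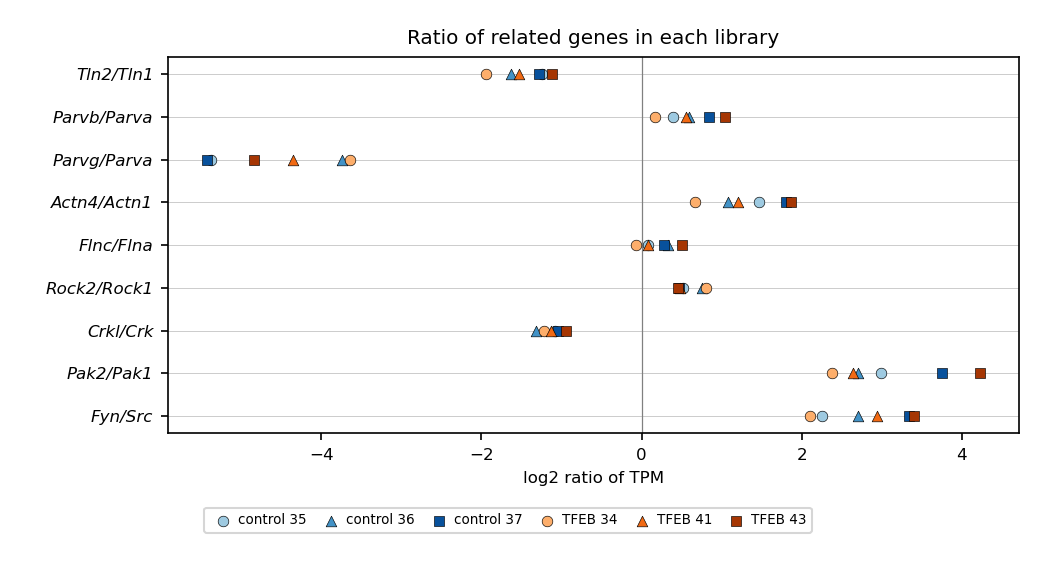
Log2 ratio of TPM between related adhesion genes in each library; symbols as in the plot of levels. In 6 of the 9 ratios TFEB 34 is lowest and in 7 TFEB 43 is highest. The controls lie among the TFEB libraries except in Parvg/Parva and Crkl/Crk. Controls 35 and 37 lie below all TFEB libraries in Parvg/Parva, and control 36 does in Crkl/Crk.

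The table is given per transcript model, and the adhesion genes have 175 models, from 1 each for Capn2, Dock1, Pak2 and Parvg to 31 for Ptk2. Of these, 116 passed the filter and 0 were called (edgeR, adjusted over 33706 models, 0% of which were called); 0 had an unadjusted p under 0.05, where 1.93% of all models had. The median SE of a log2 fold change was 0.52 per model against 0.13 per gene, so values per model are far less certain than the gene values.

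In some genes a single form carried most of the RNA. One model held over 90% of TPM in 11 of the 33 genes. These include Capn2, Dock1, Pak2 and Parvg, which have only 1 model each, so that their share of 100% is fixed in advance. NM_009502 of Vcl, whose coding sequence in GENCODE gives 1066 residues, held 98.8% on average. The small remainder, XM_006518922, made up 2.38, 0.94 and 1.63% in controls 35, 36 and 37 and 0.80, 0.57 and 0.70% in TFEB 34, 41 and 43. It had the smallest p of all adhesion models (log2 fold change −1.13, SE 0.50, unadjusted p = 0.0630 and adjusted p = 1.00 by edgeR), at a mean of only 0.89 TPM. A model of Rock2, XM_036157272, gave −0.51 (SE 0.27) at a mean of 8.3 TPM, and NM_001282021 of Vasp 1.00 (SE 0.59) at 4.96 TPM. Minor models were XM_006511433 of Tln2, with −1.02 (SE 0.55) at 0.40 TPM, and XM_036163962 of Tln1, with 0.68 (SE 0.47) at 1.27 TPM.

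Some models encode proteins of different length, and their shares are given as a percentage of the gene's TPM. Actn1 was divided between NM_001346669, with 51.0% ± 10.3 of TPM in control and 51.7% ± 12.3 in TFEB overexpression (SD, n = 3 each), and NM_134156, with 43.7% ± 13 and 44.6% ± 11.9. Flnc was almost wholly NM_001311074, of 2693 residues, with 94.4% ± 1.65 in control and 96.5% ± 1.11 in TFEB overexpression. The longer form of 2726 residues, NM_001081185, made up 7.29, 4.00 and 5.55% in controls 35, 36 and 37 and 2.26, 4.20 and 4.15% in TFEB 34, 41 and 43. These values overlap, and by edgeR it had −0.49 (SE 0.23) as log2 fold change and an adjusted p of 1.00. Pxn was mainly NM_011223 (557 residues), at 50.8% ± 7.89 in control and 53.1% ± 8.81 in TFEB overexpression. XM_006530202, for which no coding length was matched, held 19.4% ± 0.87 and 23.2% ± 6.94. NM_133915 (591 residues) held 20.7% ± 7.10 and 16.9% ± 3.79. The next 3 forms were chosen after their values were seen. Crk-I, the short adaptor that lacks the regulatory C-terminal part (NM_001277219, 204 residues against 304 for Crk-II), made up 25.2% ± 2.72 of Crk in control and 27.6% ± 3.31 in TFEB overexpression. Rac1b, a self-activating splice form with an insert (NM_001347530, 211 residues against 192), made up 5.60% ± 0.28 and 5.47% ± 1.06. FynB, the form of most tissues (NM_001122893, 537 residues), made up 73.6% ± 2.53 and 75.8% ± 5.57 of Fyn.

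Promoter letters were searched for the sites of factors that act on this pathway, because the line overexpresses TFEB and because serum response factor drives many actin genes. RefSeq promoters of build GRCm38.p6 were at hand for 25 of the 33 genes, in 33 windows, and the 250 bases before each start were read on both strands. The E-box CACGTG, the core of TFEB sites, stood in those of Ilk, Lims1 and Pak1, 3 of 33 windows, against 6.02% of 32851 promoter windows of all genes. The longer CLEAR palindrome of 10 bases, which contains it, was found in 0 of 33, against 0.240%. A CArG box, the serum response factor site, stood in Vcl and Fermt2, 2 of 33 windows against 1.47%. GGAATG, the core of TEAD factor sites, stood in 4 of 33, those of Actn4, Flna, Flnc and Vcl, against 12.6%. Of the 5 windows that hold an E-box or a CArG box, 3 are shown, 5′ to 3′ on the strand of the gene with the motif in capitals, to show where it lies and what surrounds it.
Lims1, chr10:58371289-58371374, plus strand: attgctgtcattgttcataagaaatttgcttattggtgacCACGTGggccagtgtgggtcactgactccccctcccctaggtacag
Pak1, chr7:97788369-97788454, plus strand: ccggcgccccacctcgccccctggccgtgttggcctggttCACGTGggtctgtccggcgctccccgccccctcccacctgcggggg
Vcl, chr14:20929148-20929220, plus strand: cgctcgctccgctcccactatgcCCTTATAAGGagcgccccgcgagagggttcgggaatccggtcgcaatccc

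The E-box begins 150 bases before the start of Ilk, 125 before the start of Lims1 that it precedes and 132 before that of Pak1. The CArG box begins 227 bases before the start of Vcl that was used, which lies slightly inside the span given above for the gene. That of Fermt2 lies before an alternative start and inside the span that RefSeq gives the gene, and the Lims1 start is likewise an internal one. A match is a description of the letters and not evidence of binding. The log2 fold changes of the E-box genes were 0.13 for Ilk, −0.0092 for Lims1 and 0.27 for Pak1, and those of the CArG box genes were 0.07 for Vcl and −0.0073 for Fermt2, none of them called.

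A wider list of 80 other adhesion and actin genes was tested in the same fit. Of these, 77 passed the filter, and 0 were called higher and 0 lower by edgeR, where 0% of all genes tested were called. An unadjusted p under 0.05 was reached by 2 of 77, against 1.21% of all genes. Values above 0 numbered 58 of 77, against 51% of all genes. The median log2 fold change was 0.08, against 0.0030 for all genes. DESeq2 and limma-voom also called 0, with 1 and 2 at an unadjusted p under 0.05, where 202 and 139 of all 13565 genes reached it. The median was −0.028 without TFEB 34, 0.035 without control 35, 0.14 without control 36 and 0.17 without TFEB 43. In this list 4 genes were higher in every TFEB library than in any control and 2 were lower, where 2.24% and 2.51% of all genes were.

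The 8 with the smallest p take in all 6 of these. Profilin-1 (Pfn1), which feeds actin monomers to growing filaments, had 128, 147 and 132 CPM in control against 183, 162 and 152 CPM in TFEB overexpression. Every TFEB library lay above every control, the ratio was 1.22 (95% interval 1.01 to 1.48), and the adjusted p was 1.00 by edgeR. Vav2 had 27.6, 31.2 and 29.7 CPM in control against 39.3, 33 and 34.1 CPM in TFEB overexpression, a ratio of 1.2 (95% interval 1.01 to 1.44). Its relative Vav3 had a ratio of 1.3 (0.998 to 1.69) and the kinase gene Pak4 a ratio of 1.12 (0.907 to 1.37), also without overlap. Lower in every TFEB library were Rhob, at a ratio of 0.880 (0.742 to 1.05), and Ppp1r12a, which encodes the targeting subunit of myosin phosphatase, at 0.903 (0.786 to 1.04). Cofilin-1 (Cfl1), which severs filaments, and Csrp1, at log2 fold changes of 0.30 (SE 0.21) and 0.32 (SE 0.23), overlapped between the groups. None of the 8 passed the test after adjustment.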

How the data were processed

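The authors deposited 1 table of 62498 RefSeq transcripts with Entrez gene numbers. The kinds of value per library are read counts, TPM and FPKM, per the file headers. Estimated counts, with fractions and unscaled, are what the authors deposited as read counts. TPM and FPKM, also deposited, adjust for transcript length and for the library. The submitters' processing notes list mm10 as the build and 4 tools, which are HISAT2 (2.1.0), RSEM (1.3.1), DESeq2 (1.4.5) and Bowtie2 (2.3.4.3), with no role for any. Strand setting and filters are unstated. Another 6 columns of normalised counts hold no values and were not used.

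Estimated counts were summed per gene and rounded. Symbols came from RefSeq (GRCm38.p6); 117 of 17524 genes had none and were kept in the tests. TFEB overexpression was compared with control with the two-sided quasi-likelihood test (glmQLFit, then glmQLFTest) of edgeR 4.0.16 under R 4.3.3, after filterByExpr left 13565 genes and TMM scaling, and per transcript model in the same way. SE is the log2 fold change over the root of F. Genes with values in every library were Tln1, Vcl, Ptk2, Pxn, Ilk, Flna, Flnc, Actn1 and Rhoa, the 6 smallest p, any without overlap, and the highest and lowest by TPM; of the wider list, the 8 smallest p. Models were named by the smallest p of up to 6 genes and, among these genes, by shares of at least 10%. List levels are mean log2 CPM (prior count 2). Alternatives were RLE and upper-quartile scaling, DESeq2 1.42.0, limma-voom (limma 3.58.1), other filters, limma-trend on log2(TPM + 1), log2(TPM + 0.1) and log2(FPKM + 1), marker levels as covariates, and each library left out. The members and lists were chosen with earlier results of these data known. Figures were drawn with matplotlib 3.10.9.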

Additional observations from a re-analysis of the deposited data

How the results depend on the processing

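No paired analysis was possible because the numbers in the titles differ between the groups. The count of 0 adhesion genes called, that of 0 related genes called and that of 0 transcript models called were the same under every alternative run for each, and at an adjusted p under 0.1 for the 33 genes. The number of paralogue ratios without overlap, 0 over all libraries, ran from 0 to 1 with a library left out (1 without control 36 or TFEB 43) and was 0 with FPKM, counts or TPM + 1. Of 561 values of single adhesion genes under alternatives, 528 kept their sign and none was called. The other 33 changed sign, in 17 genes; the values lie near 0 or rest on few libraries, and the cause was not tested. With a library left out, the log2 fold change ran from −0.10 to 0.11 for Tln2, −0.060 to 0.036 for Fermt2, −0.090 to 0.10 for Lims1, −0.014 to 0.26 for Parva, −0.022 to 0.17 for Parvb and −0.025 to 0.13 for Ptk2. It ran from −0.31 to 0.31 for Src, −0.00075 to 0.14 for Fyn, −0.11 to 0.058 for Crk, −0.012 to 0.064 for Crkl, −0.011 to 0.94 for Actn1 and −0.25 to 0.37 for Zyx. It ran from −0.017 to 0.20 for Cdc42, −0.015 to 0.13 for Diaph1, −0.14 to 0.67 for Pak1, −0.024 to 0.10 for Pak2 and −0.078 to 0.14 for Capn2. On log2(TPM + 1) and log2(TPM + 0.1) Fermt2 stood at 0.0049 and 0.0050 and Lims1 at 0.00088 and 0.00089. With the matrix level as a covariate Lims1 stood at 0.014, Src at −0.035, Zyx at −0.0063 and Pak1 at −0.00035. Counts of 15 to 129 per library limit Parvg and Pak1.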

Other observations

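Some genes of the wider adhesion list that belong to heart muscle were among its highest, as were others such as Pfn1 (405 TPM) and Capns1 (343 TPM). The following were chosen after their values were seen. Actn2, the alpha-actinin of the sarcomere Z-disc and also one of the cardiomyocyte markers, stood at a mean of 1144 TPM (1074 to 1203 over the 6 libraries), above every one of the 33 adhesion genes. Pdlim5, a Z-disc LIM protein, stood at 598 TPM (477 to 706) and Nexn, which encodes the actin-binding protein nexilin, at 381 TPM (344 to 436). Lower in the list, Lims2, which encodes PINCH-2, stood at 70.3 TPM (62.7 to 76.8), in a range that overlaps that of Lims1 (68.2 to 77.8). Their log2 fold changes were 0.02 (SE 0.17) for Actn2, 0.11 (SE 0.19) for Pdlim5, 0.04 (SE 0.13) for Nexn and −0.08 (SE 0.11) for Lims2. At the other end, Fermt3, the kindlin of blood cells, stood at 8.15 TPM (5.19 to 13.2), and Fermt1, the kindlin of epithelia, ran from 0 to 0.030 TPM.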
